A study of Mus musculus with 16 samples.

Results

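Adrenal glands of male (XY) and female (XX) mice that both carry the Rspo1 gain of function (GOF) genotype were compared gene by gene. Of the 54838 genes in the deposited count table, 50502 lie on autosomes, and 17609 of these had enough reads to be tested. The comparison rests on 4 male GOF and 4 female GOF libraries of the 16 in the study, and each library is another mouse. The other libraries are 4 male and 4 female controls of the same age, used here for the shared estimate of the spread and to ask whether a sex difference in GOF differed from the one without GOF. All mice were 4 weeks old and on a mixed genetic background, and whole adrenal glands were sequenced. The labels name the genotypes only as control and Rspo1 GOF: the promoter or Cre line that drives Rspo1, and the alleles the controls carry, are not given in the sources used here.

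R-spondin 1, the product of Rspo1, is a secreted protein that keeps WNT receptors at the cell surface by drawing the ubiquitin ligases ZNRF3 and RNF43 away from them, and so raises WNT/beta-catenin signalling. In the adrenal cortex this pathway is known for setting the identity of the outer, aldosterone-producing zona glomerulosa and for maintaining the progenitor cells from which the cortex renews. The mouse cortex also differs between the sexes: the X-zone, a transient inner zone, regresses at puberty in males and later in females.

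Total counts ran from 31275146 (Male GOF 4) to 43003968 (Female GOF 2), and values below are counts per 1000000 reads (CPM) scaled with TMM factors. Rspo1 itself lay between 354 and 532 CPM in the female GOF libraries and between 535 and 972 CPM in the male ones, against at most 48.2 CPM in any control. The 2 ranges did not overlap, with means of 458 ± 80.2 (SD, n = 4) and 805 ± 201 (SD, n = 4). The log2 fold change was 0.81, which did not pass in edgeR (adjusted p 0.296), where the spread is estimated together with the controls. A 2-sided exact permutation test over the 8 GOF libraries gave p = 0.0286, the smallest that 4 against 4 allows. After Benjamini-Hochberg adjustment over 20 properties it was 0.0714. Ddx3y, on the Y chromosome, had no counts in any female GOF library and a mean of 153 CPM in the males, as the labels give. The defining adrenal genes Star, Cyp11a1 and Cyp11b1 were at or above 4085 CPM in all 8 GOF libraries. On the first principal component of the 8 libraries, which held 53.8% of the variance of the 1000 most variable genes, the sexes stood apart; on the second, with 14.0%, Female GOF 1 and Male GOF 2 stood apart from the other 6.

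Male and female GOF adrenals differed at 5189 of the 17609 autosomal genes, 29.5% of those tested (quasi-likelihood test of edgeR, Benjamini-Hochberg adjusted over all 18214 genes, threshold 0.05). Of these, 2329 were higher in males (13.2% of those tested) and 2860 were lower in males (16.2%). The called differences were mostly moderate, with a median absolute log2 fold change of 0.71, and 1741 genes reached an absolute log2 of at least 1, 974 of them higher in males. The 4 male values lay wholly above or below the 4 female values at 4217 of the called genes and at 5080 of all tested genes (28.8% of those tested). The median log2 fold change over all tested autosomal genes was 0.03. The share of calls that were higher in males was 44.9%, and it moved to 55.3% with upper-quartile scaling and to 53.7% with limma on the deposited FPKM values, which changes the test, the filter and the unit together. By chromosome the share of tested genes called ran from 25.5% on chromosome 14 to 32.2% on chromosome 2.

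**Figure D1:**
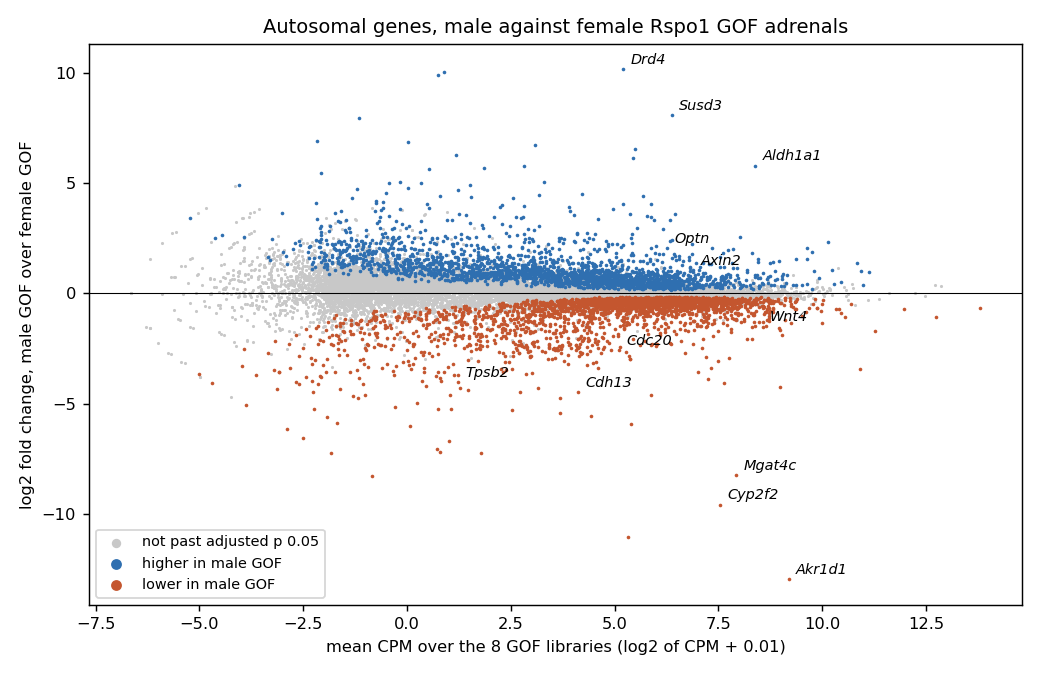
Log2 fold change of male over female GOF adrenals (vertical axis) against the mean level over the 8 GOF libraries (horizontal axis, log2 of CPM + 0.01) for the 17609 autosomal genes tested. Blue points are the 2329 genes higher in males, red points the 2860 genes lower in males and grey points the rest; Drd4 and Susd3 lie near the top and Akr1d1, Cyp2f2 and Mgat4c at the bottom.

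Several genes were far higher in males, and some of them had few reads in females. Drd4, the dopamine D4 receptor (chr7:141292006-141296464, + strand, GRCm38), had 0.0877, 0.0458, 0.0597 and 0.0572 CPM in Female GOF 1 to 4 and 69.8, 32, 127 and 65.7 CPM in Male GOF 1 to 4. The female values come from 9 reads in all, at most 3 per library, and every male value was far above them. The log2 fold change of Drd4 was 10.14 ± 0.83 (SE; adjusted p 1.9e-06 in edgeR). Susd3, a sushi domain membrane protein (chr13:49230690-49248706, - strand), had 0.468, 0.527, 1.05 and 0.457 CPM in the females and 222, 131, 156 and 157 CPM in the males. The groups were far apart in every library (log2 8.06 ± 0.48, adjusted p 1.3e-07). Aldh1a1, which oxidises retinaldehyde to retinoic acid (chr19:20492715-20643465, + strand), had 13.1, 14.5, 7.68 and 12.7 CPM in the females and 1180, 28.2, 549.4 and 886 CPM in the males. Male GOF 2 was the lowest male but still above every female (log2 5.78, adjusted p 0.00015). Aldh1a7, its close paralogue on the same chromosome, was also lowest among males in Male GOF 2, with 132, 2.49, 75.7 and 135 CPM in the males and at most 1.65 CPM in the females; the counting could split reads between such copies, which was not tested.

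Other genes were also far higher in males. Acan, the cartilage proteoglycan aggrecan, averaged 0.92 ± 0.614 CPM in females and 88.8 ± 51.0 CPM in males, with Male GOF 2 again lowest at 15.8 CPM (log2 6.56, adjusted p 6.0e-05). Eppin, a protease inhibitor known from the epididymis, had no counts in any female library and 6.23, 1.37, 4.06 and 3.17 CPM in the males, at least 44.7-fold higher against a floor of 3 counts per library. Vmn2r12 (a vomeronasal receptor gene), Rarres1, Acat3 (an acetyl-CoA acetyltransferase) and Kcnd3os had log2 fold changes of 5.76, 5.69, 5.04 and 5.06. Kcnd3os is antisense to Kcnd3; whether the counting used strand is not given in the sources used here, so reads of the 2 partners cannot be told apart.

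Akr1d1, the steroid 5-beta-reductase (chr6:37530173-37568815, + strand), marked the opposite end. It had 1069, 899, 1238 and 1493 CPM in Female GOF 1 to 4 and 0, 0.457, 0.1 and 0.0302 CPM in Male GOF 1 to 4. The female values lay within a narrow range while the males were at or near 0 (log2 -12.95 ± 1.71, adjusted p 9.7e-05). The males had 21 reads in all, 16 of them in Male GOF 2. Over the fits that left out 1 library the log2 ran from -14.55 (without Male GOF 2) to -12.52 (without Male GOF 1). Mgat4c, an N-glycan branching enzyme (chr10:101681487-102391469, + strand), had 273, 695, 613 and 356 CPM in the females and 0.981, 2.26, 0.826 and 2.42 CPM in the males (log2 -8.24 ± 0.56, adjusted p 3.7e-07). Here too every female was far above every male. Cyp2f2, a cytochrome P450, was uneven among females, at 750, 23.9, 595 and 125 CPM, against 0.2 to 0.701 CPM in the males. Its female mean of 373 CPM fell to 248 CPM without Female GOF 1, and the male values stayed below all of them (log2 -9.58, adjusted p 0.00013).

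Further genes were far lower in males. Chl1, a neural cell adhesion molecule of the L1 family, averaged 83.4 ± 31.6 CPM in females and 1.37 ± 0.494 CPM in males (log2 -5.93, adjusted p 0.00026). Cdh13, the GPI-anchored T-cadherin (chr8:118283733-119324921, + strand), had 43.7, 27.9, 40.1 and 22.1 CPM in the females and 1.78, 1.51, 1.28 and 1.42 CPM in the males (log2 -4.48 ± 0.31, adjusted p 3.0e-07). Xrra1 (log2 -5.58), Vnn3, of the pantetheinase family (-5.40), Ggt6, of the gamma-glutamyl transferase family (-5.30), and Lhx3, a LIM homeobox factor known from the pituitary (-5.22), were lower in all males than in any female. Lactbl1 had no counts in any male library and 0.733 to 1.37 CPM in the females, at least 13.1-fold lower in males. Hephl1, a ferroxidase relative, had 3 counts in all males together, and 492 of its 575 female counts came from Female GOF 2: its female mean of 3.43 CPM became 0.823 CPM without that library, and the female to male ratio of 191 had a 95% counting interval from 65.0 to 929.

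Among genes with a mean of at least 10 CPM over the 8 GOF libraries, those with the smallest p included smaller differences. Gzf1, a zinc finger gene, had 64.8, 67.3, 58.5 and 64.0 CPM in the females and 123, 118, 122 and 119 CPM in the males (log2 0.92 ± 0.06, adjusted p 1.9e-07). Optn, the autophagy receptor optineurin, averaged 30.1 ± 2.36 and 123 ± 22.3 CPM (log2 2.03 ± 0.12), Tmem52 4.27 ± 0.471 and 69.7 ± 15.4 CPM (log2 4.03 ± 0.21) and Colca2 5.46 ± 0.841 and 27.5 ± 2.64 CPM (log2 2.33 ± 0.16; female then male mean ± SD, n = 4 each). Cspg5, a brain chondroitin sulphate proteoglycan, had 25.7 to 35.2 CPM in females and 5.92 to 9.03 CPM in males (log2 -2.13 ± 0.13, adjusted p 1.4e-07). Sertad4 was lower in males at log2 -2.61 ± 0.17, and Fam210a at log2 -1.35 ± 0.09.

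**Figure D2:**
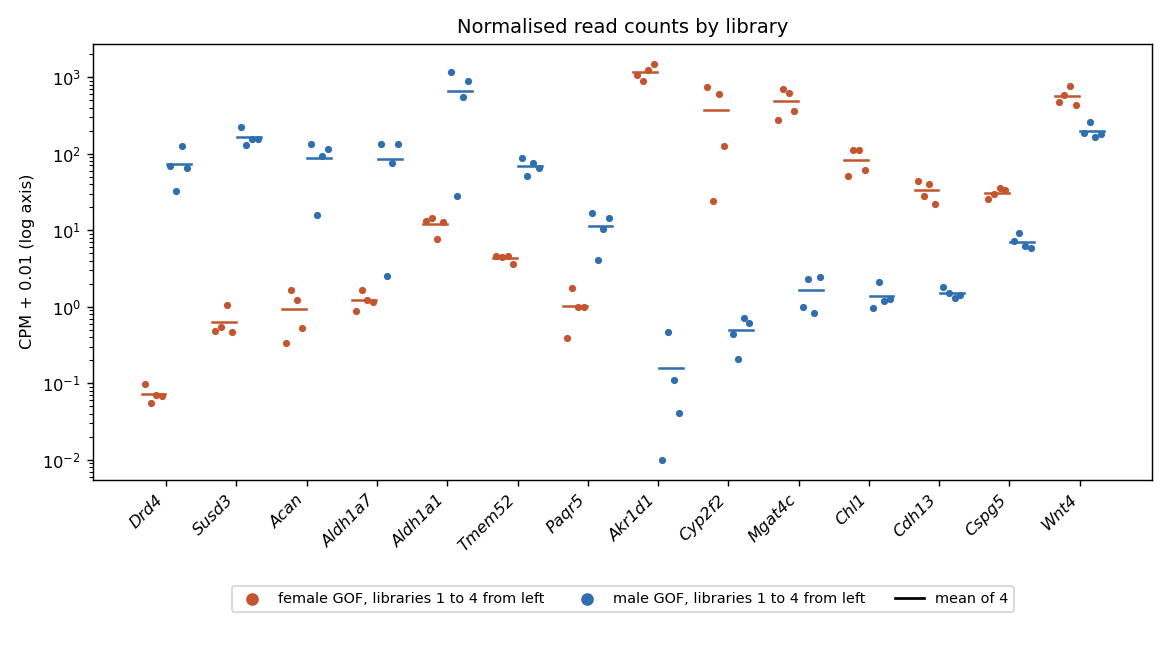
CPM (log axis, 0.01 added) of 14 genes in each of the 8 GOF libraries, with female libraries in red, male libraries in blue and the mean of 4 as a bar. The male and female points of every gene shown are apart; Male GOF 2 is the lowest male for Acan, Aldh1a7 and Aldh1a1, and the female values of Cyp2f2 run from 23.9 to 750 CPM.

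Genes of DNA replication and mitosis were lower together in males than in females. All 24 tested DNA replication genes were lower in male GOF adrenals, with log2 fold changes from -2.96 to -0.91 and a median of -1.56, and all 24 mitosis genes were lower, from -2.75 to -1.13 with a median of -2.33. Of all autosomal genes tested, 16.2% were lower in males and the median was 0.03. The groups did not overlap for 23 of the 24 replication genes and 20 of the 24 mitosis genes, against 28.8% of all genes tested. Rrm2, the small subunit of ribonucleotide reductase, had 26.4, 85.5, 70.6 and 111 CPM in the females and 7.29, 11.4, 11.3 and 7.7 CPM in the males (log2 -2.96 ± 0.49, adjusted p 0.00048). Cdc20, an activator of the anaphase-promoting complex, had 19.9, 66.4, 64.8 and 86.5 CPM in the females and 7.16, 11.2, 13.7 and 7.4 CPM in the males (log2 -2.59 ± 0.46, adjusted p 0.00085). Female GOF 1 was the lowest female for each of the 48 genes tested in these lists, and yet its values stayed mostly above the males. Mki67, a marker of proliferating cells, had 51.5, 166, 85.5 and 132 CPM in the females and 10.9, 21, 37.5 and 19.5 CPM in the males (log2 -2.29, adjusted p 0.0065).

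Genes of the replicative helicase were among them. Mcm3 had 74.8, 101, 105 and 116 CPM in females and 28.3, 40.3, 30.7 and 29.6 CPM in males (log2 -1.62 ± 0.17, adjusted p 1.2e-05), and Mcm4 had 45 to 65.9 CPM against 21.1 to 24.6 CPM (log2 -1.37 ± 0.12, adjusted p 2.4e-06). Ccne1, cyclin E1, averaged 11.2 ± 4.01 CPM in females and 1.73 ± 0.404 CPM in males (log2 -2.69). Among the 7 cyclin-dependent kinase inhibitors, whose products restrain the cycle, 4 were also lower in males, against 16.2% of all genes tested, and none was higher. Cdkn1c, which encodes p57, had 202, 174, 222 and 195 CPM in the females and 29.7, 65.2, 36.1 and 32.7 CPM in the males (log2 -2.28, adjusted p 1.4e-05). The others were Cdkn2c (log2 -1.16), Cdkn2a (-1.89) and Cdkn1a (-1.15). In these whole-gland libraries, fewer cells of a type and less RNA per cell cannot be told apart. Each time a single library was left out, all 24 replication genes and at least 23 mitosis genes passed the threshold.

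To show what sequence lies upstream of genes that moved together, the 250 bases before the start site are given for the 2 genes with the smallest p in each list that are in the RefSeq table (GRCm38.p6), 5′ to 3′ on the gene's strand. Capitals mark CCAAT boxes (CCAAT), CHR elements (TTTGAA or TTTAAA) and E2F sites (GCGGGAA or GCGCGAA), on either strand, so a box on the other strand reads ATTGG. The regions are chr1:20820313-20820562 (- strand) for Mcm3, chr5:138171884-138172133 (- strand) for Mcm7, another helicase subunit, chr4:118437344-118437593 (- strand) for Cdc20 and chr19:37376132-37376381 (+ strand) for Kif11, the spindle motor. Bases shortly after the start were found in a GENCODE transcript of the gene for Mcm3, Mcm7 and Cdc20 but not for Kif11, so the Kif11 start site is less certain.
Mcm3: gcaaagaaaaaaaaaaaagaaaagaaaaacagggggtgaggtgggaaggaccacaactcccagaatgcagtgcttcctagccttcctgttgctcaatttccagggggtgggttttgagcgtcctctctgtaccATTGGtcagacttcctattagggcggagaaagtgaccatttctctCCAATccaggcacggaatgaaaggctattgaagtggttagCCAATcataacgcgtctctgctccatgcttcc
Mcm7: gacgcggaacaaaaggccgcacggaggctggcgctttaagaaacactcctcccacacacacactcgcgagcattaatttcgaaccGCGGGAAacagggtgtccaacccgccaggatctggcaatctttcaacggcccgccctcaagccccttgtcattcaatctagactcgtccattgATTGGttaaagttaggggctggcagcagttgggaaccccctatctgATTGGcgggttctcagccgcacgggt
Cdc20: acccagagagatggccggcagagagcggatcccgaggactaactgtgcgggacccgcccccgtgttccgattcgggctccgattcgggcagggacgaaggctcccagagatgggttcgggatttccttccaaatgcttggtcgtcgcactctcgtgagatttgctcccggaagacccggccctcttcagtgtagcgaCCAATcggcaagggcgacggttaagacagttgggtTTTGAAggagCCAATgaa
Kif11: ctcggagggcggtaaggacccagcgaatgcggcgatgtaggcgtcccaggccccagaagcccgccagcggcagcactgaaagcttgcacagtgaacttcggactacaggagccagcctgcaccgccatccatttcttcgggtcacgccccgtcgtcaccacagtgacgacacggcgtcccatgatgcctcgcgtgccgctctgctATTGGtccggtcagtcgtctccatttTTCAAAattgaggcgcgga
The Mcm3 window held 3 CCAAT boxes, the Mcm7 window 2 and an E2F site, the Cdc20 window 2 and a CHR element, and the Kif11 window 1 of each of these last kinds. CCAAT was found in 13 of the 19 replication promoters and 17 of the 20 mitosis promoters in the table, and in 34.3% of all 25748 autosomal promoters. A CHR element was found in 4 of 19 and 11 of 20, against 25.0% of all. An E2F site was found in 9 of 19 and 1 of 20, against 5.10% of all. These are matches of letters and say nothing of binding.

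**Figure D3:**
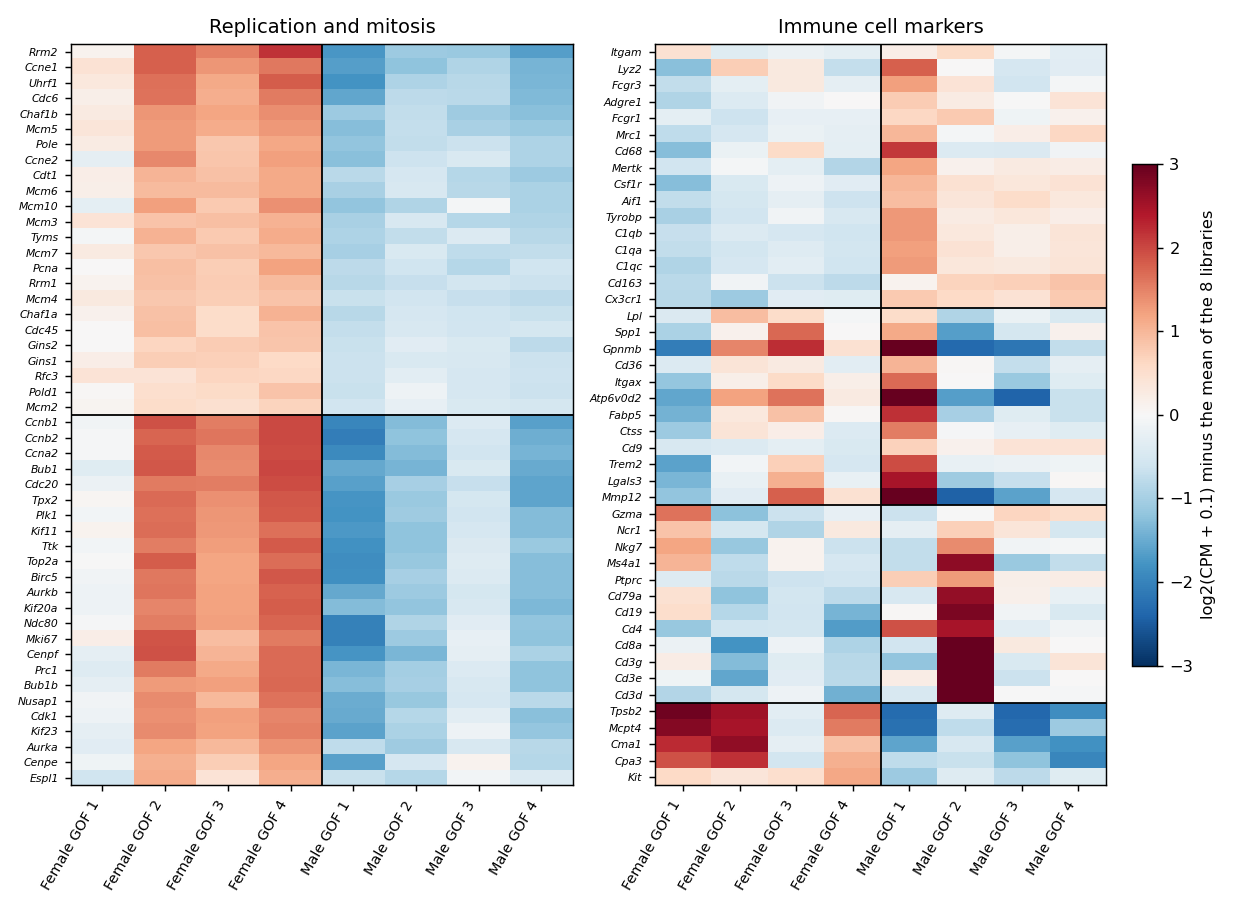
Heat maps of the 8 GOF libraries (columns) for replication and mitosis genes (left, lists parted by a line) and markers of macrophages, lipid-laden macrophages, lymphocytes and mast cells (right, top to bottom); colour is log2(CPM + 0.1) minus the gene's mean over the 8 libraries. Replication and mitosis genes are high in Female GOF 2 to 4, near the middle in Female GOF 1 and low in the males; lipid-laden macrophage markers are high in Male GOF 1 and T and B cell markers in Male GOF 2.

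Steroid hormone genes were called in both directions. Among the 8 genes shared by all steroid-producing zones, 3 were lower in males and 1 higher, against 16.2% and 13.2% of all genes tested. Nr5a1, the nuclear receptor SF-1 that drives steroidogenic gene expression, had 2012, 2181, 1781 and 1327 CPM in females and 753, 1250, 1132 and 825 CPM in males (log2 -0.88, adjusted p 0.0079). Cyp21a1, the steroid hydroxylase of the last steps before corticosterone, averaged 9289 ± 1368 CPM in females and 4388 ± 2001 CPM in males (log2 -1.08, adjusted p 0.0061). Hsd3b1, with a log2 of -0.68, lost its call without Female GOF 1, Female GOF 4, Male GOF 1, Male GOF 3 or Male GOF 4. Fdx1, ferredoxin 1, which passes electrons to mitochondrial P450 enzymes, had 689, 771, 505 and 426 CPM in females and 985, 1361, 1260 and 1203 CPM in males (log2 1.01, adjusted p 0.0019). Star, which brings cholesterol into mitochondria, and Cyp11a1, which cleaves its side chain, had log2 values of 0.36 and 0.33 and did not pass.

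Zone markers moved in both directions. Of 7 zona glomerulosa markers, 3 were higher in males and 1 lower, with a median log2 of 0.60 (29.5% called and a median of 0.03 over all genes tested). Kcnk9, the potassium channel TASK-3, had 34.4, 42.5, 25.4 and 32.8 CPM in the females and 89.1, 51.2, 155 and 86.1 CPM in the males (log2 1.49, adjusted p 0.00073). The angiotensin receptor genes Agtr1b and Agtr1a were higher at log2 0.88 and 0.35, and Dab2 was lower at -0.79 (adjusted p 0.0013). Cyp11b2, aldosterone synthase, had a log2 of 0.95 and an adjusted p of 0.087, with overlapping groups; it passed without Female GOF 1 (adjusted p 0.045), without Male GOF 2 (0.021) and in DESeq2 (0.033). Of 4 zona fasciculata markers 1 was called in each direction. Akr1b7 was higher in males (265 ± 107 against 735 ± 249 CPM, log2 1.47, adjusted p 0.011). Mc2r, the ACTH receptor, was lower (log2 -0.88, adjusted p 0.022), a call lost without Female GOF 1, Female GOF 3, Male GOF 1, Male GOF 3 or Male GOF 4. Cyp11b1, the last enzyme of corticosterone synthesis, averaged 5922 ± 473 CPM in females and 5419 ± 769 CPM in males (log2 -0.13, adjusted p 0.70).

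Of the 3 X-zone markers, 2 were nearly absent from both sexes of the GOF genotype. Akr1c18, 20-alpha-hydroxysteroid dehydrogenase, was at most 0.478 CPM in the females and 0.0751 CPM in the males, against a mean of 5412 CPM in female controls. Pik3c2g was at most 0.567 CPM in any GOF library. Abcb1b, a drug efflux pump also listed with the X-zone, was 1294 ± 186 CPM in female GOF and 2613 ± 797 CPM in male GOF adrenals (log2 1.01, adjusted p 0.0038), and was 3911 CPM on average in female controls.

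In a list of 12 genes drawn up for steroid inactivation and interconversion, 4 were higher and 4 lower in males, against 13.2% and 16.2% of all genes tested. One of the lower genes, Cyp2f2, is known for the metabolism of foreign compounds rather than of steroids. Besides Akr1d1, Hsd17b7 (log2 -1.72), a reductase of estrone and of a sterol intermediate, was lower. Srd5a2, steroid 5-alpha-reductase 2, had 297, 412, 322 and 222 CPM in females and 1424, 1133, 946 and 1664 CPM in males. The lowest male was above the highest female (log2 2.04 ± 0.23, adjusted p 2.6e-05). Hsd17b11 was higher in males at log2 0.79. Sult1e1, estrogen sulphotransferase, was higher at log2 2.79 but below 1 CPM in all 8 libraries. Hsd11b1, at log2 0.62, lost its call when any GOF library other than Male GOF 2 was left out.

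Of 18 cholesterol genes, 5 were lower in males and 1 higher, with a median log2 of -0.26; of all autosomal genes tested 29.5% were called, a share near that of the list. Hmgcs1, the cytosolic HMG-CoA synthase, had 355, 307, 418 and 484 CPM in females and 134, 154, 184 and 182 CPM in males (log2 -1.26, adjusted p 0.00026). Fdft1, squalene synthase, was lower at log2 -1.06. Scarb1, the HDL receptor that supplies cholesterol to steroidogenic cells, was higher at 0.96. The 6 calls became 3 without Male GOF 1 and likewise without Female GOF 4, and the Scarb1 call was lost in both cases and also without Female GOF 3.

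WNT feedback targets, the genes that report beta-catenin activity, did not move as one: of 14 tested, 4 were higher in males and 2 lower, with a median log2 of 0.18 (13.2% and 16.2% over all genes tested). Axin2, a scaffold of the beta-catenin destruction complex, had 79.7, 67.7, 80.1 and 84.5 CPM in females and 148, 140, 173 and 182 CPM in males. Each male was above every female (log2 1.04 ± 0.11, adjusted p 1.1e-05). Tcf7, a transcription factor partner of beta-catenin, was higher at log2 0.54, Notum, an enzyme that deacylates WNT ligands, at 1.23 and Nkd1, a WNT inhibitor, at 0.45; the Notum call was lost without Male GOF 3 and the Nkd1 call without Female GOF 1 or Male GOF 1. Wnt4, the main WNT ligand of the cortex, went the other way, with 467, 588, 767 and 429 CPM in females and 185, 261, 166 and 178 CPM in males (log2 -1.51 ± 0.19, adjusted p 4.5e-05). Znrf3, the ligase that R-spondins oppose, was lower in males at -0.66 (adjusted p 0.00015). Rspo1 itself was lower in every female than in every male, as given above, and its part in these differences was not tested.

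**Figure D4:**
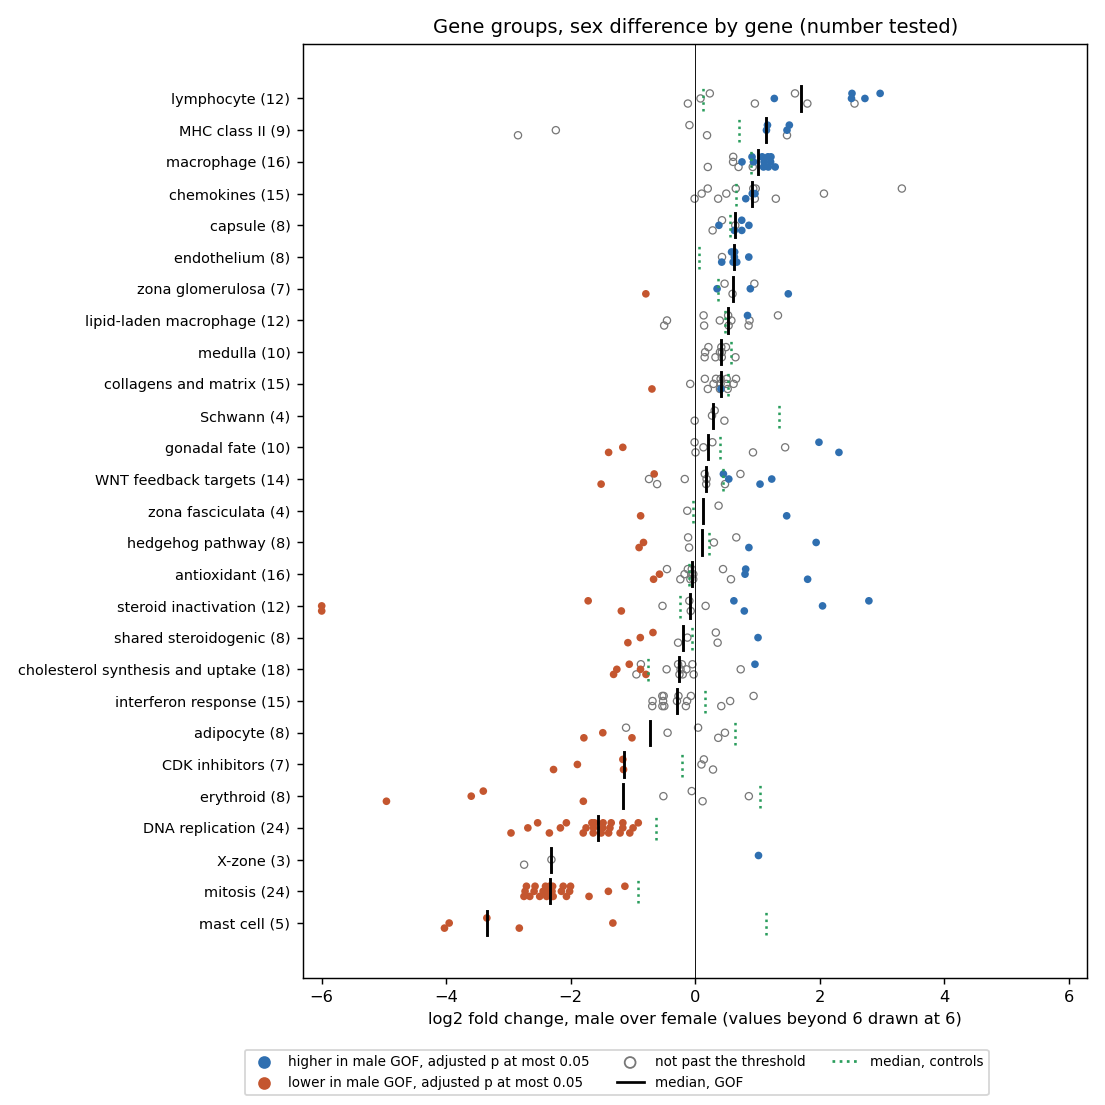
Log2 fold change of male over female for each tested gene of 27 gene groups, ordered by the median in GOF; filled points passed an adjusted p of 0.05 in GOF, black bars are GOF medians and dotted green bars the medians of the same genes in controls. Values beyond 6 are drawn at 6; mast cell, mitosis and replication medians (-3.35, -2.33 and -1.56) lie to the left, with X-zone at -2.31, and the lymphocyte, MHC class II and macrophage medians (1.70, 1.14 and 1.01) are the highest of the groups drawn.

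Of 8 hedgehog pathway genes 2 were higher and 2 lower in males, with a median log2 of 0.10 (29.5% called and a median of 0.03 over all genes tested). Shh, the hedgehog ligand made by outer cortical cells, had 6.84, 9.39, 8.21 and 5.09 CPM in females and 41.9, 19.3, 30.5 and 21.8 CPM in males (log2 1.94 ± 0.26, adjusted p 9.6e-05). Gli1, a transcription factor induced in capsule cells by that ligand, was higher in males at log2 0.86 and Gli3 lower at -0.90. Of 8 capsule and stromal markers, 5 were higher in males (13.2% of all genes tested) and none lower, with a median log2 of 0.64, among them Pdgfra (18.8 ± 0.631 against 31.5 ± 3.47 CPM) and Nr2f2. Gli1 is in this list too, so its call is counted in both. Of 15 collagen and matrix genes, Col6a1 was higher (log2 0.41) and Sparc lower (-0.70), and the other 13 did not pass, while 29.5% of all genes tested were called. Of 8 endothelial markers, 7 were higher in males (again 13.2% of all), at log2 values of up to 0.86 for the receptor gene Tie1 (62.0 ± 6.34 against 112 ± 15.4 CPM), and the groups did not overlap for 7 (28.8% of all). The count of calls fell to 2 to 4 when any GOF library other than Male GOF 2 was left out, and to 1 with the range of animal numbers as a covariate.

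Macrophage genes were higher in males in 11 of 16 cases and lower in none, with a median log2 of 1.01, where 13.2% of all genes tested were higher and the median was 0.03. Cx3cr1, the fractalkine receptor, had 18.2, 15.3, 25.7 and 25.3 CPM in females and 56.0, 49.6, 43.5 and 56.4 CPM in males (log2 1.28, adjusted p 0.00059). The complement gene C1qa had 60.9, 70.4, 78.0 and 69.6 CPM in females and 241, 139, 116 and 133 CPM in males (log2 1.17, adjusted p 0.0020). Male GOF 1 carried the highest male value for 12 of the 16 genes, and the number of calls ran from 9 to 13 when single libraries were left out. Cd163 (log2 1.22), Aif1 (1.10) and Csf1r (1.08) were also higher, while Cd68 and Lyz2, high in Male GOF 1, did not pass. Of 15 chemokine genes, Cx3cl1, the ligand of Cx3cr1, Cxcl12 and Cxcl16 were higher in males at log2 0.92, 0.96 and 0.81 (13.2% of all genes tested were higher).

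Genes of lipid-laden macrophages were highest in one mouse. Gpnmb, a glycoprotein of such cells, had 10.6, 125, 212 and 62.5 CPM in females and 403, 8.89, 10.04 and 27 CPM in males. Male GOF 1 was the highest male for all 12 genes of the list, and for Gpnmb the other males were below Female GOF 2 to 4. The log2 fold change of Gpnmb was 0.13 (adjusted p 0.94) and became -2.73 (adjusted p 0.028) without Male GOF 1. In the list 1 gene of 12 passed, Cd9 (log2 0.83), against 29.5% of all genes tested, and 2 passed without Male GOF 1.

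Lymphocyte genes passed in 5 of 12 cases, all higher in males (13.2% of all genes tested), and their summed level was highest in Male GOF 2. Cd3e, of the T cell receptor complex, had 0.292, 0.0458, 0.239 and 0.143 CPM in females and 0.398, 3.86, 0.175 and 0.332 CPM in males (log2 2.73, adjusted p 0.029). Male GOF 2 was the highest male for 11 of the 12 genes. Without it 2 genes passed and the Cd3e value was 0.77 (adjusted p 0.36), and the Cd3e call was lost as well without Female GOF 2, Female GOF 3 or Female GOF 4; 3 passed without Female GOF 2 or Female GOF 3, 2 without Female GOF 4 and 7 without Male GOF 1. Ptprc, the pan-leukocyte gene for CD45, had 17.1, 12.7, 14.3 and 14.8 CPM in females and 36.9, 54.2, 25.1 and 25.9 CPM in males, with no overlap (log2 1.27, adjusted p 0.00041). Among 9 MHC class II genes 4 were higher in males (13.2% of all), among them Cd74 at log2 1.47, and 2 were without Male GOF 2, Female GOF 3 or Female GOF 4. H2-Aa had 14.8, 14.8, 0.269 and 9.41 CPM in females and 0.876 to 2.11 CPM in males, so Female GOF 3 fell below all males and the gene did not pass (log2 -2.85, adjusted p 0.15). No interferon response gene of 15 passed by edgeR, with 2 at an unadjusted p under 0.05, where 29.5% of all genes tested passed and 40.2% were at such a p, and 1 passed by DESeq2; 1 passed without Female GOF 1, Female GOF 2 or Female control 2.

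Mast cell genes were lower in males in all 5 cases tested, with a median log2 of -3.35, where 16.2% of all genes tested were lower. Tpsb2, a mast cell tryptase, had 7.66, 5.86, 0.717 and 3.32 CPM in females and 0.106, 0.686, 0.1 and 0.181 CPM in males (log2 -4.03, adjusted p 0.00074). The chymase genes Mcpt4 (log2 -3.95) and Cma1 (-3.35) and the carboxypeptidase Cpa3 (-2.83) were lower too, with Female GOF 3 the lowest female for each of the 4 protease genes and no overlap between the groups. Kit, the stem cell factor receptor, had 28.4 to 49.9 CPM in females and 10.3 to 17 CPM in males (log2 -1.32). The protease genes were at low levels, and Kit made up most of the summed mast cell level in every GOF library. All 5 genes passed whichever library was left out, while 1 was tested and passed where 10 counts were required in every library.

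Of 8 erythroid genes, 4 were lower in males (16.2% of all genes tested) and none was higher. Slc4a1, the red cell anion exchanger, had 36.1, 11.7, 3.67 and 7.66 CPM in females and 0.928, 0.829, 0.801 and 2.33 CPM in males (log2 -3.60, adjusted p 0.014). Hemgn (log2 -4.96) and Klf1 (-1.80) were also lower in males, and Female GOF 1 was the highest female for these 3 genes. Without Female GOF 1 the 4 calls became 1, that of Hemgn (log2 -4.04, adjusted p 0.0077). The globin genes did not pass: Hbb-bs averaged 257 ± 89.0 CPM in females and 279 ± 73.4 CPM in males.

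Other cell types of the gland gave smaller counts. None of 10 medulla genes passed by edgeR and none was at an unadjusted p under 0.05, against 29.5% and 40.2% of all genes tested; Chga, a chromaffin granule protein, had 63.9 to 223 CPM in females and 138 to 230 CPM in males, and 1 gene passed without Female GOF 2. The summed medulla markers ran from 206 to 914 CPM in the GOF libraries, against means of 7056 CPM in female and 9944 CPM in male controls. None of 4 Schwann cell genes passed, and none was at an unadjusted p under 0.05. Of 8 adipocyte genes, Retn (log2 -1.79), Cfd (-1.48) and Adipoq (-1.02) were lower in males (16.2% of all genes tested), the last call lost without Female GOF 2, Male GOF 2 or Male GOF 4. Among 10 genes of gonadal fate 2 were lower and 2 higher in males (16.2% and 13.2% of all). Inhbb, an inhibin and activin subunit, was lower in males at log2 -1.39 and Gata4 at -1.16, while Insl3, a Leydig cell hormone, was higher at 1.99 but at most 1.19 CPM. Cyp17a1, the 17-alpha-hydroxylase, was higher at 2.31 but at most 0.551 CPM, a call lost without Female GOF 3, Female GOF 4, Male GOF 3 or both of Female GOF 1 and Male GOF 2. Of 16 antioxidant genes 3 were higher and 2 lower in males, a share near the 29.5% called among all genes tested. Hmox1, heme oxygenase 1, had 20.9, 29.4, 34.4 and 26.6 CPM in females and 176, 50.9, 70.8 and 91.0 CPM in males (log2 1.81, adjusted p 0.0019). Gstm1 and Gstm2, glutathione transferases of the mu class, were higher at log2 0.81 and 0.80.

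The makeup of the libraries moved with sex in several of these measures. Summed marker levels had non-overlapping ranges between the sexes for X-zone (carried by Abcb1b), lymphocyte (only with the pan-leukocyte gene Ptprc in the sum), mast cell, capsule, endothelial and adipocyte lists. Each had p = 0.0286 by a 2-sided exact permutation test, the smallest p that 4 against 4 allows, and 0.0714 after Benjamini-Hochberg adjustment over 20 properties. The TMM scaling factor was apart in the same way, at 0.991 to 1.016 in females and 1.033 to 1.096 in males, with the same p before and after adjustment. The endothelial sum spanned 699 to 789 CPM among females and 968 to 1245 CPM among males. The share of reads from mitochondrial genes was 1.75 to 2.93% in females and 2.92 to 3.77% in males (exact permutation p = 0.0571). Summed liver markers were at most 63.9 CPM and summed kidney tubule markers at most 0.526 CPM in the 8 GOF libraries. The part of these values in the gene differences was not tested. The animal numbers in the labels fall into ranges, and 2 of these hold both sexes, each with 1 female and 2 males. Within the lower range 99.2% of the 5189 calls had the same direction, and within the higher one 99.8% did; the calls were made on these same libraries, so this is a description and no independent check. With the range as a covariate, Nr5a1, Hsd11b1, Nkd1, Notum, Cd3e, Cxcl12, Cxcl16, Adipoq, Cfd and Gata4 no longer passed. Without both Female GOF 1 and Male GOF 2, the libraries apart on the second component, Akr1b7, Scarb1, Nkd1, Cd3e, Cxcl12, Slc4a1 and Adipoq no longer passed.

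The same sex contrast in controls gave 4082 autosomal calls (23.2% of those tested). It compares other libraries than the GOF contrast, but both come from 1 fit with a shared estimate of the spread, so their calls are not independent. In both genotypes 2089 genes were called, which is 40.3% of the GOF calls and 51.2% of the control calls: 1054 were higher in males in both, 973 lower in both and 62 opposite. Akr1d1 (log2 -8.79 in controls), Susd3 (5.72), Optn (1.59) and Cdkn1c (-2.31) were among those called in 1 direction in both. Of the 595 Akr1d1 reads in male controls 588 came from Male control 2 (17.2 CPM), the library with the Alb reads given further on, and the lowest female control was at 1472 CPM. The control value without that library is not reported here. A call in one genotype alone does not show a difference between genotypes, so the sex by genotype interaction was tested, and it called 731 autosomal genes (4.15% of those tested). Of these, 508 were also called between the sexes in GOF, 373 of them lower and 135 higher in male GOF adrenals.

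The mean of Mgat4c was 59.9 CPM in female and 17.1 CPM in male controls, and 484 and 1.62 CPM in female and male GOF adrenals (interaction log2 -6.43, adjusted p 0.00019). Drd4 averaged 0.51 and 11.3 CPM in female and male controls, against 0.0626 and 73.5 CPM in GOF (interaction log2 5.65, adjusted p 0.0099). Aldh1a1 was not called between the sexes in controls (92.7 and 67.7 CPM) and its interaction was 6.23 (adjusted p 0.0046). Cdh13 had 7.42 and 12.5 CPM in female and male controls and an interaction of -5.23 (adjusted p 1.2e-05). Wnt4 was at 349 and 343 CPM in controls, and its interaction was -1.49 (adjusted p 0.0059). For Srd5a2 the sex difference was smaller in GOF than in controls, where females had 109 and males 1468 CPM (interaction -1.71, adjusted p 0.0089).

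Paqr5, of the progestin and adipoQ receptor family, was higher in male GOF adrenals (11.4 against 1.02 CPM) and lower in male controls (6.93 against 23.3 CPM), with an interaction of 5.21 (adjusted p 0.00075). Mgam2-ps, a pseudogene, also went in opposite directions (interaction 7.78) but from 2 counts in all female GOF and 30 in all male GOF libraries together. Col6a1 was another of the 62 opposite genes, with an interaction of 0.97 (adjusted p 0.0017). Of the replication genes 5 of 24 passed the interaction, against 4.15% of all genes tested, among them Ccne1 (-2.32), Cdt1 (-1.20) and Mcm4 (-0.88), and none of the 24 mitosis genes did; in controls 12 replication genes and 1 mitosis gene were lower in males and none higher, with medians of -0.62 and -0.92, where 9.78% of all genes tested were lower. Of the mast cell genes 4 of 5 passed the interaction (4.15% of all), and for Tpsb2 the interaction was -5.30 (adjusted p 0.0062). The Hemgn interaction of -6.36 (adjusted p 0.045) was lost in 12 of the 16 fits that left out 1 library, and the Tpsab1 interaction of -5.86 in 6.

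The interaction rests on the controls too, and some of those held reads of genes known from other tissues. Alb, the liver gene for albumin, reached 5861 CPM in a male control, and Lrp2, a kidney tubule gene, 133 CPM in a female control. The source of these reads was not tested. Leaving out single libraries gave 359 to 906 interaction calls. The count was 359 without Male GOF 4, 361 without Female control 3, 370 without Female GOF 4, 385 without Female GOF 3, 400 without Male GOF 3, 476 without Male control 3 and 506 without Male control 2, the library with the Alb reads.

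**Figure D5:**
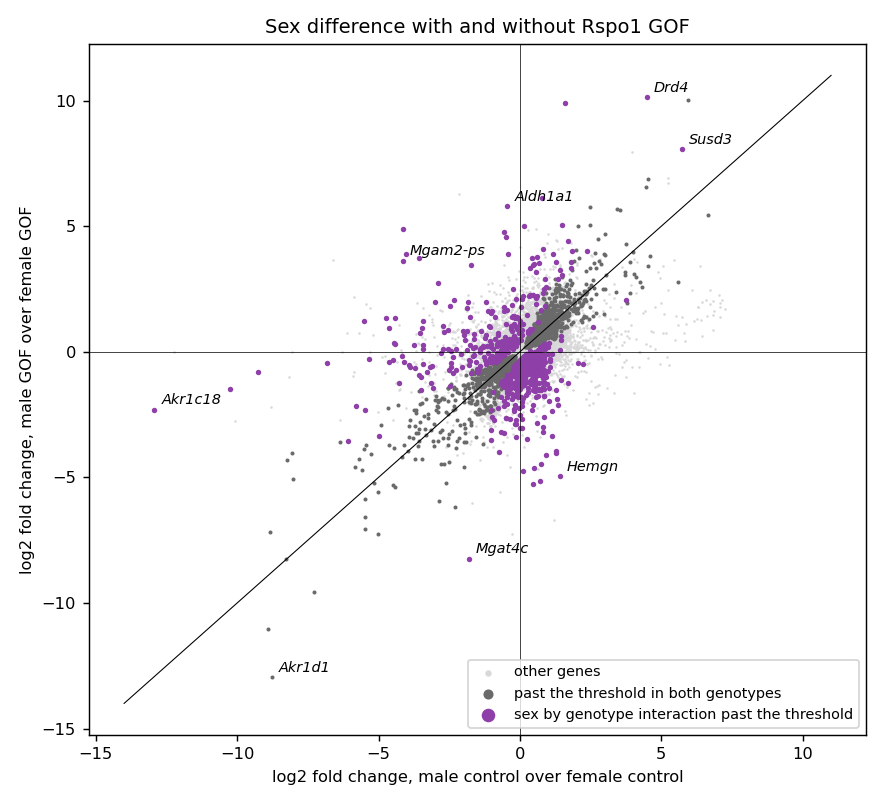
Log2 fold change of male over female in controls (horizontal axis) and in GOF adrenals (vertical axis) for the autosomal genes tested; the diagonal marks equal differences. Dark grey points passed the threshold in both genotypes without an interaction call and purple points are the 731 interaction calls; Akr1d1 and Susd3 are far from 0 in both genotypes, while Mgat4c lies at -1.81 in controls and -8.24 in GOF.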

How the data were processed

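RNA from whole adrenal glands of 16 mice, 4 for each sex and genotype, was sequenced as 150 bp paired-end reads from NEBNext Ultra libraries, per the labels' protocols. Groups were taken from the sample labels, which name individual mice. The deposited counts are raw read counts per gene made by the authors, who also deposited FPKM values. The submitters' processing notes name TopHat2 2.0.12, Bowtie2 2.2.3, HTSeq 0.6.1 and DESeq 1.18.0; the genome build, the annotation and whether the counting used strand are not given in the sources used here. Gene symbols and positions are from GENCODE M21 (GRCm38), which held 54809 of the 54838 gene identifiers.

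Counts were tested with edgeR 4.0.16 (R 4.3.3): filterByExpr, TMM factors, robust quasi-likelihood fits with 1 mean per group over all 16 libraries (12 residual degrees of freedom) and Benjamini-Hochberg adjustment over 18214 genes at 0.05. CPM are per 1000000 TMM-scaled reads, and log2 fold changes are male minus female. Replicates of a group differed by more than counting noise. Named genes were (a) the 10 highest and 10 lowest fold changes among called genes averaging 1 CPM or more in either sex without overlap, (b) the 5 smallest p in each direction at 10 CPM or more, (c) the 5 highest and 5 lowest interactions among genes called both between the sexes in GOF and in the interaction, and (d) defining and leading members of 30 gene lists; clone and predicted names were left out, and a few list members are not reported here by name. The genes and lists were chosen with earlier results of these data known. Alternatives were DESeq2 1.42.0, other scalings and filters, limma 3.58.1 on log2(FPKM + 1) or log2(FPKM + 0.1), an animal number covariate and leaving out each library; leaving out both Female GOF 1 and Male GOF 2 was chosen after seeing the data. The edgeR fit was also run on simulated counts, with known changes between the sexes in GOF and with none. The other tests were not run on simulated data. Intervals and floors (3 counts per library) cover counting error only. Library properties were compared with exact permutation tests (scipy 1.17.1).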

Additional observations from a re-analysis of the deposited data

Results flagged for a closer look

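With 4 libraries in a group, a value far from the other 3 was looked for in 106 groups of values and found in 7, where chance gives about 1 in 20. Susd3 was 1.05 CPM in Female GOF 3, against 0.457 to 0.527 CPM in the other females, and Tmem52 was 3.57 CPM in Female GOF 4, against 4.42 to 4.56 CPM. Female GOF 2 had the most reads, 43003968, and the lowest endothelial sum, 699 CPM. Male GOF 1 had 1962 CPM of macrophage and 1626 CPM of lipid-laden macrophage markers, against at most 847 and 360 CPM in the other males. Male GOF 2 had 118 CPM of lymphocyte markers, against at most 48.8 CPM.

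The sex difference in GOF minus that in controls passed the interaction test for the genes that follow, given on the log2 scale. Of these 16 genes 10 were chosen for their interaction, so their number is not to be set against the 4.15% of all genes tested that passed. It was positive for Drd4 (5.65), Susd3 (2.35), Aldh1a7 (5.36), Aldh1a1 (6.23), Kcnd3os (3.56), Tmem52 (1.65), Gzf1 (0.51), Mgam2-ps (7.78) and Paqr5 (5.21). It was negative for Mgat4c (-6.43), Cspg5 (-1.94), Sertad4 (-1.61), Cdh13 (-5.23), Hemgn (-6.36), Tpsab1 (-5.86) and Tpsb2 (-5.30). With limma on log2(FPKM + 1) the Aldh1a7 and Tpsab1 interactions did not pass.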

How the results depend on the processing

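The 5189 autosomal calls became 5755 with DESeq2, 5019 with upper-quartile scaling, 4609 with limma on log2(FPKM + 1), 3814 with the animal number range as a covariate and 4684 without both Female GOF 1 and Male GOF 2; of the 5189, 5111, 4573, 4070, 3635 and 4281 genes were shared. Upper-quartile scaling moved the median of all genes from 0.03 to 0.09. Leaving out single libraries gave 4067 to 5442 calls, 1848 to 2461 of them higher in males and 2176 to 2981 lower. With an absolute log2 of at least 1, the counts were 1741 in all, 974 higher and 767 lower in males, and 364 for the interaction. Genes lower in males numbered 1879 with limma on log2(FPKM + 1) and no filter. The 731 interaction calls became 1368 with DESeq2, 386 with no filter, 393 with limma and no filter, and 359 to 906 when single libraries were left out. The cause of these changes was not tested. Gpnmb changed sign without Male GOF 1, to -2.73 (adjusted p 0.028), and lay between -2.73 and 0.79 over the fits that left out 1 library. No paired analysis was possible because the labels carry no replicate numbers: the numbers used here follow accession order. With limma on log2(FPKM + 1), Hephl1, Sult1e1 and Klf1 no longer passed between the sexes. The 4 mice per group limit the precision, and genes with a few reads per library rest on counting noise.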
